A study of Rattus norvegicus with 9 samples.

Results

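The probe class ASRN6AP1A was described on m6A epitranscriptomic arrays of rat cortex. Its members were all non-control probes whose name begins with ASRN6AP1A, which gave 4138 of the 41186 transcript probes on the array (10.05%), each with 1 spot. The files do not state which type of RNA the class holds, and they pair no member with a gene, so members are given by probe name. The largest class, ASRN6AP1B, holds 28015 probes, ASRNV 5519, ASRN6SM 2505, the ultraconserved regions (names beginning with uc.) 959, and 50 probes carry an accession.

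The cortex came from the ischemic side of young adult male Sprague Dawley rats in 3 groups of 3. Control rats were sham operated, with no plug inserted. Model rats had cerebral ischemia-reperfusion injury, made by a wire plug in the carotid artery that was later withdrawn, and were sampled on day 7. BHD rats were model rats given Buyang Huanwu Decoction, a traditional Chinese herbal formula, and were sampled after 7 days. The injury is a focal one by filament, and cortex is a mixture of neurons, glia and vessel cells, so that fewer cells of a type and less RNA per cell cannot be told apart. The labels call the arrays of a group biological replicates, and the p-values measure the spread between them.

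N6-methyladenosine (m6A) is the most common internal modification of mRNA. It is written by a methyltransferase complex around Mettl3 and Mettl14, removed by the demethylases Fto and Alkbh5, and read by YTH domain proteins, and it bears on the splicing, decay and translation of the RNA. On these arrays an anti-m6A antibody divides the RNA of each rat into an immunoprecipitated fraction (IP), rich in methylated RNA, and a supernatant fraction (Sup), and log2(IP/Sup) is the measure of m6A level of a probe. A value above 0 means more IP than Sup signal relative to the other probes of that array, since each array was centred by its normalization. RNA lost or gained as a whole moves both channels, and a change of m6A level moves them apart.

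Each array held 44393 features and 0 saturated spots. Between 70.9% and 82.7% of all transcript probes passed the scanner's test for signal well above background in IP, and 58.4% to 72.7% in Sup. By scan time, slide 1 carried every control array together with model replicate 1. Slide 2 carried the remaining model arrays along with BHD replicates 1 and 2, and slide 3 only BHD replicate 3. Control and BHD arrays therefore shared no slide, and slide and group cannot be told apart in that comparison other than through the model arrays. BHD replicate 3 also had the lowest raw median signal of the members in IP, 31.5 against 33 to 43 on the other arrays, and the highest in Sup, 48.5 against 33 to 40. Model replicate 2 had ratios closer to 0 than the other arrays. The quartiles of its member log2(IP/Sup) values were -0.055 and 0.089, where the lower quartile of the other arrays was -0.23 to -0.13 and the upper 0.13 to 0.20, and over all tested probes its quartiles were -0.10 and 0.14.

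The members were detected less often than the probes of ASRN6AP1B in both channels. In IP, detection of the members was 55.0%, 58.8% and 63.1% in control, 69.9%, 60.6% and 62.1% in model, and 63.6%, 66.8% and 56.7% in BHD. In Sup it was 47.2%, 42.9% and 52.3% in control, 55.6%, 49.1% and 50.8% in model, and 56.8%, 57.5% and 50.8% in BHD. IP detection was higher than Sup detection on each of the 9 arrays, by 10.4 percentage points ± 3.36 (SD, n = 9).

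The place of the members among the classes was the same on all 9 arrays. Member detection minus that of ASRN6AP1B was -22.2 points in IP (range -25.7 to -19.05) and -24.2 points in Sup (exact sign-flip test over 9 arrays, p = 0.0039, the smallest it can give). Minus that of ASRN6SM it was -11.4 and -16.1 points. It was higher than that of ASRNV by 5.55 and 7.95 points and than that of the uc. probes by 20.3 and 21.8 points. Each of these 8 differences ran the same way on 9 of 9 arrays. The gap between IP and Sup detection was 1.98 points wider in the members than in ASRN6AP1B (p = 0.0117, exact sign-flip test over 9 arrays). A wide gap was not particular to the members, since the group means of ASRNV and of the uc. probes lay further apart in each group. In control, mean IP and Sup detection was 52.4% and 39.0% in ASRNV and 38.2% and 26.1% in the uc. probes. In the members it was 58.9% and 47.5%.

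Most members were either detected throughout or not at all. A total of 1600 members (38.7%) had both channels above background on each of the 9 arrays, against 63.9% of ASRN6AP1B. A further 1020 members (24.6%) were above background on no array in either channel, against 8.50% of ASRN6AP1B. A set of 27 members (0.652%) was above background in IP on all 9 arrays and in Sup on none, against 0.753% of ASRN6AP1B. The reverse was shown by 1 member (0.024%), against 0.0071% of ASRN6AP1B. In total 2765 members passed the filter, with a channel above background on 3 or more of the 9 arrays, and 2758 (66.7%) could be tested in the fits of 9 arrays, against 87.1% of ASRN6AP1B. At the limit of that rule, 93 members were above background on exactly 3 arrays and 145 on 2.

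No difference in detection of the members between the groups passed the test. Mean IP detection was 58.9% ± 4.05 (SD, n = 3) in control, 64.2% ± 5.04 in model and 62.4% ± 5.17 in BHD. Mean Sup detection was 47.5% ± 4.70, 51.8% ± 3.37 and 55.1% ± 3.67. The 6 exact permutation tests gave p of 0.2 to 0.7, where 3 against 3 arrays cannot go below 0.1. From control to model the mean IP share of all probes was 4.50 points higher (p = 0.3, exact permutation test) and that of the members 5.24 points higher (p = 0.3, exact permutation test). Single members did switch: 16 (0.387%) were above background on all 3 model arrays and on no control array, and 0 the other way, where 0.352% and 0% of all probes did so. For BHD against control these counts were 19 (0.459%) and 0, where all probes were at 0.709% and 0.0097%, and for BHD against model 3 (0.0725%) and 4 (0.0967%), where they were at 0.085% and 0.0656%. The one-sided pattern against control was also that of all probes.

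Detection within the class differed by the number in the probe name. After ASRN6AP1A each name has a running number, enclosed by a leading 1 and a closing 11. Below 12000 the numbers were spread evenly, with 236 to 260 members for every 1000 numbers, and 2965 members lay there. Of each such step, 53.4% to 64.1% passed the filter, with a channel above background on 3 or more arrays, against 86.5% of the members with higher numbers. The other 1173 members had numbers scattered from 12047 to 1197956. Of the lower-numbered members 30.9% were above background on no array in either channel, against 8.95% of the higher-numbered ones. IP detection was 47.2% to 62.9% over the 9 arrays in the first and 74.6% to 87.8% in the second, and their difference was 28.1 points, with a range of 24.9 to 33.0. In Sup the difference was 25.9 points (22.4 to 29.7). In ASRN6AP1B the same limit left 85.3% of its 1878 probes below 12000 and 87.3% of those above it in the tests. The limit was set after the values had been seen, so these figures are a description.

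Median control signal, the mean of both channels on the log2 scale, was 6.55 in the lower range and 6.81 in the higher. Among members with both channels detected on all 9 arrays, the median control log2(IP/Sup) was -0.04 and -0.07, and 6.03% and 5.99% had a value over 1. A number was shared with an ASRN6AP1B probe by 451 members. The signals of such pairs had a Spearman rho of -0.05, and over the 90 pairs detected in both channels throughout, rho of log2(IP/Sup) was 0.03, both across probes, which share the array.

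At baseline the members had ratios close to 0, with narrower tails than ASRN6AP1B. The mean control log2(IP/Sup) of the tested members had a median of 0.0068 and a range of -1.04 to 0.85 from the 5th to the 95th percentile. ASRN6AP1B had a median of 0.025 and ran from -1.35 to 1.44. The SD between members was 0.65, while the SD between control arrays had a median of 0.10 per member. A value over 1 was held by 100 members (3.63%) against 9.51% of ASRN6AP1B, and a value under -1 by 145 members (5.26%) against 8.05%.

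Members with high ratios were scarcer than in ASRN6AP1B. The share over 1, members minus ASRN6AP1B, was -5.78 points on the control arrays and -5.25 points over the 9 arrays. It was below 0 on 9 of 9 arrays (exact sign-flip p = 0.0039 over the 9 arrays, adjusted 0.0057 over 44 tests). Among probes detected throughout in both channels it was -6.34 points in control and -5.72 points over the 9 arrays (p = 0.0039 for the latter, exact sign-flip test). Members were dimmer, with a median control signal of 6.66 against 7.25 on the log2 scale, and 14% of them fell in the dimmest of 10 signal bins against 7.74% of ASRN6AP1B. Averaged within these bins the difference was -3.32 points in control. Over the 9 arrays it was -2.96 points and below 0 on 9 of 9 (p = 0.0039, exact sign-flip test). By bin, the share over 1 of members and of ASRN6AP1B was 1.00% and 3.26% in bin 5, 2.01% and 6.68% in bin 6, 3.95% and 14.2% in bin 7, 8.88% and 18.2% in bin 8, and 15.4% and 22.4% in bin 9. In the brightest bin, with 170 members, the members were at 20% and ASRN6AP1B at 19.2%.

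The medians lay close together. The member median minus that of ASRN6AP1B was -0.019 on the control arrays. Over the 9 arrays it was -0.016 and below 0 on 8 of 9 (p = 0.0078, exact sign-flip test, adjusted 0.0107). Within signal bins it was -0.033 on the control arrays and -0.0097 over the 9 arrays (p = 0.488, exact sign-flip test, adjusted 0.4996). The share under -1, minus that of ASRN6AP1B, was -2.77 points on the control arrays and -0.11 points within signal bins, where it was -0.69 points over the 9 arrays (p = 0.0391, exact sign-flip test, adjusted 0.0452). Against ASRN6SM the members had a median higher by 0.090 in control, and a difference of -7.82 points in the share under -1. Against ASRNV, the class nearest in detection, the difference of medians was -0.0088 in control and -0.0072 over the 9 arrays (p = 0.0586, exact sign-flip test, adjusted 0.0661). Among probes detected throughout it was 0.016 over the 9 arrays (p = 0.0117, exact sign-flip test, adjusted 0.0152). Within signal bins it was 0.030 (p = 0.0039, exact sign-flip test, adjusted 0.0057). The share under -1, minus that of ASRNV, was 0.059 points over the 9 arrays (p = 0.59, exact sign-flip test). It was -1.61 points among probes detected throughout and -2.82 points within signal bins (p = 0.0039 for both, exact sign-flip test). The share over 1 was higher than in ASRNV by 0.52 points in control. Among probes detected throughout it was higher by 0.044 points in control and by 0.48 points over the 9 arrays (p = 0.0977, exact sign-flip test, adjusted 0.107). Within signal bins the sign turned, with -0.75 points in control and -0.27 points over the 9 arrays (p = 0.172, exact sign-flip test, adjusted 0.18).

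The members with the highest and the lowest control ratio lay far from 0 in model and BHD too. Of the 1531 members detected in both channels throughout with a value on every array, ASRN6AP1A10000844711 had the highest control log2(IP/Sup), with 5.01, 5.42 and 6.01. It had 5.62, 5.16 and 5.70 in model and 5.33, 5.37 and 4.36 in BHD. The next, ASRN6AP1A10039352211, had a control mean of 3.05 ± 0.079 (SD, n = 3). The lowest was ASRN6AP1A10000638111, with -4.67, -4.63 and -4.33 in control, -4.80, -4.51 and -4.19 in model and -4.70, -4.54 and -3.99 in BHD. Its Sup signal was 15.14, 15.23 and 14.93 on the log2 scale in control, so the low ratio belonged to a bright probe. ASRN6AP1A10000448511 followed with a control mean of -3.98 ± 0.44 (SD, n = 3).

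The comparison of model and control asks how the m6A level and the abundance of these RNAs stood after ischemia-reperfusion. Few members were called, that is, changed 1.5-fold or more with an unadjusted p below 0.05. For log2(IP/Sup), 5 members were hypermethylated and 2 hypomethylated in the model group out of 2607 tested (0.269%), where 0.619% of all tested probes were called. Of all tested probes 0.231% were hypermethylated and 0.389% hypomethylated, against 0.192% and 0.077% of the members. These terms stand for a higher or lower ratio, whichever channel moved. For IP signal 8 members (0.307%) were higher and 7 (0.269%) lower, with 1.4% of all probes called, 0.692% higher and 0.705% lower. For Sup signal 5 (0.192%) were higher and 6 (0.230%) lower, with 1.24% of all probes called, 0.847% higher and 0.389% lower. No member passed Benjamini-Hochberg adjustment in limma, with smallest adjusted p of 0.766, 0.535 and 0.706 for ratio, IP and Sup, and 58, 109 and 140 members had an unadjusted p under 0.05. These were 2.22%, 4.18% and 5.37% of the members tested, below the 3.81%, 6.28% and 6.99% of all probes. Groups did not overlap in 8.64% of the members for the ratio, where 8.3% of all probes did so. The difference of the member medians, model minus control, was 0.012 in ratio, -0.0027 in IP and -0.0086 in Sup, with exact permutation p of 0.4 to 1. That of all probes was -0.00012, -0.014 and 0.012.

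A pair of members had the largest rises in both channels among the members eligible for naming. ASRN6AP1A10035570611 had an IP signal of 7.61, 7.64 and 7.67 in control, 9.42, 8.50 and 10.15 in model and 9.72, 9.16 and 10.38 in BHD. ASRN6AP1A10000617611 had an IP signal of 7.86, 7.69 and 7.81 in control, 9.51, 8.32 and 10.04 in model and 9.33, 9.11 and 11.64 in BHD. All model and BHD arrays lay above all control arrays for both probes, and the control values were close together. In model against control the first was higher in IP by 1.72 ± 0.39 (SE, log2 scale, limma adjusted p = 0.688) and in Sup by 1.23 ± 0.30 (adjusted p = 0.706). The second was higher in IP by 1.5 ± 0.42 (adjusted p = 0.701) and in Sup by 1.25 ± 0.25 (adjusted p = 0.706). Within slide 1, where model replicate 1 can be set against the 3 control arrays, the IP difference was 1.78 and 1.72 and the Sup difference 0.70 and 1.22. With slide as a block the Sup difference of the first was not called. Neither probe was called in log2(IP/Sup).

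Lower in model, among the members eligible for naming, were ASRN6AP1A10007676311 and ASRN6AP1A10056425111 in IP. The lowest changes of any tested member were -2.09 in IP and -3.25 in Sup, in members that did not meet the conditions for naming. The former had an IP signal of 9.86, 10.03 and 9.99 in control, 9.55, 8.88 and 8.74 in model and 8.30, 8.71 and 9.88 in BHD. It was lower in model by 0.91 ± 0.21 in IP and by 1.04 ± 0.22 in Sup (SE, log2 scale), and within slide 1 the difference was -0.42 and -0.55, both short of 1.5-fold. The latter had an IP signal of 10.35, 9.72 and 8.86 in control against 8.79, 8.71 and 8.58 in model, a difference of -0.95 ± 0.36. It was not called without control replicate 1 (-0.59), control replicate 2 (-0.91) or model replicate 1, 2 or 3 (-1.0, -0.96 and -0.89), nor with slide as a block (-0.85). In Sup, ASRN6AP1A10020971611 was lower by 0.83 ± 0.17 (SE), but within slide 1 the difference was -0.57, short of 1.5-fold.

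For the ratio, the 2 members named as hypermethylated were low at baseline. ASRN6AP1A10000193011 had a log2(IP/Sup) of -1.88, -1.48 and -1.36 in control, -1.19, -0.48 and -0.88 in model and -1.60, -1.0 and -0.10 in BHD. ASRN6AP1A10000298311 had -2.60, -2.08 and -1.97 in control, -1.86, -1.17 and -1.64 in model and -2.28, -1.57 and -1.0 in BHD. The model values lay above the control values by 0.72 ± 0.21 and 0.66 ± 0.23 (SE), and within slide 1 by 0.38 and 0.35, where neither was called. Model replicate 2, the array with ratios closest to 0, had the highest of the model values for both. Most of each difference lay in Sup. The first went from 7.66 ± 0.26 in control to 7.09 ± 0.28 in model in Sup, and from 6.08 ± 0.041 to 6.24 ± 0.13 in IP (SD, n = 3). Its IP signal was thus close to the low end of the scale. The dimmest signal bin, set by the mean of both channels in control, ran to 6.07. The second went from 9.03 ± 0.21 to 8.49 ± 0.19 in Sup and from 6.82 ± 0.13 to 6.93 ± 0.16 in IP (SD, n = 3). The Sup values did not overlap between control and model, and neither channel was called for either member. With no normalization within arrays the ratio differences were 0.039 and 0.16, and they were 0.48 and 0.33 with the deposited log2 table, and none of these was called. Of the 12 settings run for each, 5 and 7 lost the call. Neither was called without control replicate 1, at 0.57 and 0.46, or without model replicate 2, at 0.54 and 0.46. No hypomethylated member met the conditions for naming. The count of 7 rested on single arrays: leaving out control replicate 1, 2 or 3 gave 0, 21 and 18, and leaving out model replicate 1, 2 or 3 gave 69, 1 and 4. With the replicate number as a block, since same-numbered control and model arrays deviated together, it was 24, of which 10 were higher and 14 lower. For IP the count was 35 without control replicate 3, 32 without model replicate 1 and 6 without model replicate 3, and for Sup 18 without control replicate 2, 32 without control replicate 3 and 27 without model replicate 1.

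The comparison of BHD and model asks how the same RNAs stood after the decoction. Most called members were lower in BHD in both channels. For IP signal 142 members (5.15%) were lower and 13 (0.471%) higher out of 2758. Of all tested probes 3.59% were called lower, 1.54% higher and 5.13% in either direction. For Sup signal 99 members (3.59%) were lower and 5 (0.181%) higher, where 2.63% of all probes were called lower, 0.251% higher and 2.88% in either direction. Both were called lower in 55 members, which was 38.7% of the IP calls and 55.6% of the Sup calls, against 39.8% and 54.4% over all probes. Of the 142 members lower in IP, 95 (66.9%) had a number below 12000, as did 63.3% of the members tested. Each of the 142 was detected in both channels throughout, where 1600 members in total were so detected and 2758 were tested. The same share over all called probes was not counted, so this is not read as a trait of the called members.

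For log2(IP/Sup), 27 members were hypermethylated and 37 hypomethylated in BHD (2.32%), where 2.61% of all tested probes were called, 1.27% higher and 1.34% lower. Of the 27 hypermethylated members, 19 (70.4%) were called lower in Sup and 6 (22.2%) higher in IP, against 30.7% and 40.7% of all hypermethylated probes. Of the 37 hypomethylated ones, 16 (43.2%) were called lower in IP and 4 (10.8%) higher in Sup, against 24.0% and 9.44%. No member passed the adjustment in limma, with smallest adjusted p of 0.431, 0.211 and 0.255 for ratio, IP and Sup, and 260, 475 and 239 had an unadjusted p under 0.05. These were 9.43%, 17.2% and 8.67% of the members tested, near the 10.8%, 16.4% and 7.87% of all probes. Groups did not overlap in 27.5% of the members for IP and 16.2% for Sup, where 25.3% and 14.6% of all probes did so. The difference of the member medians, BHD minus model, was -0.051 in IP (p = 0.2, exact permutation test of 3 against 3 arrays). In Sup it was -0.058 and in ratio -0.016 (p = 0.1 for both, exact permutation test, the smallest it can give, adjusted 0.225). The difference of all probes was 0.0061 in IP, -0.026 in Sup and -0.0014 in ratio. Without BHD replicate 3 the member differences were -0.025 in IP and -0.027 in Sup. The ASRNV median in Sup was 6.459, 6.474 and 6.464 in model and 6.447, 6.451 and 6.399 in BHD. That of the uc. probes was 6.334, 6.412 and 6.359 in model and 6.329, 6.315 and 6.305 in BHD. In ASRN6SM and ASRN6AP1B the Sup medians of model and BHD overlapped.

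ASRN6AP1A10000093811 was among the members lower in BHD. Its IP signal was 12.13, 12.44 and 11.79 in control, 12.34, 13.11 and 13.55 in model and 10.94, 10.66 and 10.16 in BHD. All BHD arrays lay below all others. In BHD against model it was lower in IP by 2.41 ± 0.33 (SE, log2 scale, limma adjusted p = 0.211) and in Sup by 1.86 ± 0.27 (adjusted p = 0.255), and within slide 2 the difference was -2.53 and -1.67. ASRN6AP1A10048300811 had an IP signal of 9.79, 10.04 and 9.99 in model against 8.46, 8.46 and 8.54 in BHD. Its difference was -1.45 ± 0.21 (adjusted p = 0.253), and -1.55 within slide 2. Its control mean was 9.30 ± 0.48 (SD, n = 3). Against control its IP signal was called higher in model, by 0.64 ± 0.24, and lower in BHD, by 0.81 ± 0.21 (SE, limma adjusted p = 0.772 and 0.274). ASRN6AP1A10000093811 was also called higher in IP in model than in control, by 0.88 ± 0.33 (adjusted p = 0.772), but those groups overlapped. In Sup, ASRN6AP1A10001041811 was lower by 1.83 ± 0.47, with 8.29 on BHD replicate 3 and 10.36 and 9.39 on the other BHD arrays.

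Higher in BHD than in model were ASRN6AP1A10001145411 in IP, by 1.25 ± 0.42, and ASRN6AP1A10043993311, by 0.88 ± 0.24 (SE, log2 scale). The IP signal of the first was 11.70, 11.47 and 10.41 in model against 12.50, 12.56 and 12.28 in BHD. It was not called without model replicate 3, at 0.86. In Sup, ASRN6AP1A10000329211 was higher by 0.72 ± 0.23 and ASRN6AP1A10000241511 by 0.70 ± 0.24. Neither of these was called with slide as a block, at 0.62 and 0.58, and the last was also not called without model replicate 1, at 0.62, or without BHD replicate 3, at 0.66.

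The largest drops in ratio among the members eligible for naming were those of a pair of very bright probes with like values. ASRN6AP1A10000139611 had a log2(IP/Sup) of 0.84, 2.35 and 2.63 in control, 2.24, 2.65 and 2.53 in model and 1.16, 1.26 and 0.93 in BHD. ASRN6AP1A10000079511 had 0.91, 2.34 and 2.58 in control, 2.19, 2.60 and 2.47 in model and 1.23, 1.30 and 0.93 in BHD. Both were lower in all BHD arrays than in any model array, by 1.36 ± 0.40 and 1.27 ± 0.38 (SE), with -1.38 and -1.27 within slide 2. With no normalization within arrays the differences were -0.54 and -0.46 and not called. Control replicate 1 lay with the BHD arrays and apart from control replicates 2 and 3. The 2 members named above for a higher Sup signal had the same pattern, with 0.60 on control replicate 1 against 2.12 and 2.39 for ASRN6AP1A10000241511 and 0.36 against 1.58 and 1.93 for ASRN6AP1A10000329211. Whether these probes share sequence was not tested.

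Hypermethylated in BHD against model were ASRN6AP1A10000891211 and ASRN6AP1A10001043511. The first had a log2(IP/Sup) of -3.29, -3.25 and -3.19 in model and -3.0, -1.89 and -0.95 in BHD, and its Sup signal was 10.16, 10.51 and 10.47 in model against 9.79, 8.71 and 7.85 in BHD. The difference of 1.30 ± 0.46 (SE) was 1.27 without BHD replicate 2 and 0.80 without BHD replicate 3, and not called in either. Within slide 2 it was 0.78, with p above the limit. The second had -0.18, -1.0 and -1.36 in model and 0.97, 0.14 and 0.04 in BHD, a difference of 1.23 ± 0.46 that was 1.74 within slide 2 and was not called without model replicate 2 (1.15), model replicate 3 (0.97) or BHD replicate 1 (0.94). Its mean was 0.31 ± 0.84 in control and 0.38 ± 0.51 in BHD (SD, n = 3). In model against control it was called hypomethylated, at -1.15 ± 0.47 (SE), but the groups overlapped.

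The counts of BHD against model moved with single arrays. For the ratio it was 104 without model replicate 1 and 36 without model replicate 2. For IP it was 90 without model replicate 2, 98 without model replicate 3 and 63 without BHD replicate 3, and for Sup 200 without BHD replicate 1 and 54 without BHD replicate 3. Within slide 2, with 2 arrays a group, 132 members were called for the ratio (53 higher, 79 lower), 146 for IP (34 higher, 112 lower) and 41 for Sup (5 higher, 36 lower), where 9.0%, 6.96% and 1.82% of all probes were called.

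BHD and control arrays shared no slide, and their comparison uses the same BHD arrays as the one above. For IP signal 96 members (3.49%) were lower and 8 (0.291%) higher out of 2748. Of all tested probes 2.84% were called lower, 1.54% higher and 4.38% in either direction. For Sup signal 154 members (5.60%) were lower and 12 (0.437%) higher, where 4.46% of all probes were called lower, 2.01% higher and 6.46% in either direction. Both were called lower in 66 members, 68.8% of the IP calls and 42.9% of the Sup calls, against 68.0% and 43.3% over all probes. For log2(IP/Sup), 20 members were hypermethylated and 1 hypomethylated, where 0.969% of all tested probes were called, 0.621% higher and 0.348% lower. That split did not hold in other settings. It was 40 higher and 38 lower with slide as a block, 34 and 32 without control replicate 1, 73 and 88 with the scanner's processed signals, and 15 and 269 with the deposited log2 table. Of the 20, 17 (85%) were called lower in Sup, against 68.3% of all hypermethylated probes. No member passed the adjustment in limma, with smallest adjusted p of 0.773, 0.118 and 0.125, and 150, 362 and 441 members had an unadjusted p under 0.05. These were 5.46%, 13.2% and 16.05% of the members tested, near the 5.62%, 14.5% and 16.5% of all probes. The difference of the member medians, BHD minus control, was -0.051 in IP and -0.066 in Sup (p = 0.1 for both, exact permutation test, adjusted 0.225). That of all probes was -0.011 in IP and -0.015 in Sup. For the members alone, the difference without BHD replicate 3 was -0.024 in IP and -0.035 in Sup.

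The pair higher in model was also higher in BHD than in control. ASRN6AP1A10035570611 was higher in IP by 2.11 ± 0.42 (SE, log2 scale, limma adjusted p = 0.233) and in Sup by 1.46 ± 0.37, and ASRN6AP1A10000617611 by 2.24 ± 0.68 and 1.84 ± 0.61. With slide as a block these 4 differences were 1.89, 0.31, 1.76 and 0.99 and none was called. Lower in IP were ASRN6AP1A10000093811, by 1.53 ± 0.33, and ASRN6AP1A10000349711, by 1.17 ± 0.18 (adjusted p = 0.180). The latter had an IP signal of 9.56, 9.70 and 9.59 in control, 9.44, 9.81 and 9.99 in model and 8.67, 8.57 and 8.11 in BHD.

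In Sup, ASRN6AP1A10000875211 was lower by 1.77 ± 0.55 and ASRN6AP1A10001041811 by 1.76 ± 0.47 (SE, log2 scale). The Sup signal of the first was 10.36, 11.02 and 11.18 in control and 10.20, 9.36 and 7.68 in BHD, where BHD replicate 3 was far lower than the others. With slide as a block the differences were -0.78 and -1.49 and not called. For the ratio, ASRN6AP1A10000717211 was hypermethylated, with -1.31, -1.54 and -1.71 in control against -1.08, -0.38 and -0.14 in BHD, and ASRN6AP1A10000076111 had -0.24, -1.13 and -0.57 against -0.04, 0.18 and 0.55. Both channels were lower in BHD for these members, by 0.53 ± 0.21 in IP and 1.52 ± 0.37 in Sup for the first and by 0.60 ± 0.16 and 1.48 ± 0.30 for the second (SE), so that the higher ratio came with less IP signal. All but the first of these 4 differences were called. The ratio differences of 0.99 and 0.88 were 0.42 and 0.71 with slide as a block and not called. The 1 hypomethylated member was ASRN6AP1A10107582611, with 1.36, 1.81 and 1.58 in control, 1.53, 1.39 and 1.36 in model and 0.88, 0.85 and 0.64 in BHD, a difference of -0.79 ± 0.12 (limma adjusted p = 0.773) that was -0.56 with slide as a block and not called.

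The counts of BHD against control moved with single arrays too. Without BHD replicate 3 the count was 5 for the ratio, 31 for IP and 70 for Sup, in place of 21, 104 and 166. The ratio count was also 66 without control replicate 1, 10 without control replicate 2, 9 without control replicate 3 and 73 without BHD replicate 1. The IP count was 52 without control replicate 2, 188 without BHD replicate 1 and 171 without BHD replicate 2, and the Sup count 292 without BHD replicate 1. With slide as a block 78 (40 higher, 38 lower), 199 (18, 181) and 58 (5, 53) members were called for ratio, IP and Sup.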

How the data were processed

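Cortical RNA from the ischemic side was hybridized to 2-colour m6A arrays for 9 rats, 1 array each, with Cy5 for IP RNA and Cy3 for Sup RNA and no dye swap. The deposited scan files, written by Agilent Feature Extraction 11.0.1.1, give median spot and local background intensity values without normalization, and a processed intensity that the software has corrected for background and dye. The authors also deposited a log2 table of IP and Sup signals for 32860 probes. Each of its columns equalled the log2 of the processed intensity minus a constant to within 9.3e-09, and 2720 of the 4138 ASRN6AP1A probes were in it. Its 18 signal columns were all assigned to arrays, with 0 left unread.

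The files give no mean per spot, so medians were taken. Background was removed by normexp with an offset of 50, fitted on all spots. After that, control, spike-in and outlier spots were dropped, loess was run on each array and the spots of a probe were averaged. For IP and Sup signals an Aquantile step followed, which gives the average signal of both channels the same distribution on every array. A probe entered a test when 1 or both channels were well above background on 3 or more arrays of the fit and each group compared had 2 or more values. The work was done in R 4.3.3 with limma 3.58.1. The fit of model against control held 6 arrays and those with BHD held 9. A probe was called when it changed 1.5-fold or more with an unadjusted p below 0.05, the limits the paper uses. Benjamini-Hochberg adjustment ran over the tested probes of every class. The fit was checked on simulated data.

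Several orders of loess and spot removal were tried while the count of all called probes was compared with that of an earlier processing of the same files. None gave the same count, and the order described above was kept because it follows that processing as described, not for its count. Differences of class shares and medians between probe classes were tested over the 9 arrays by exact sign flips, and group differences of 3 against 3 arrays by exact permutation, 2-sided in each case. The smallest p these allow is 0.0039 and 0.1. The 44 tests of baseline ratio between classes were adjusted together.

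The members, the comparisons and the lists were chosen with earlier results of these data known. The shares of probes past a ratio limit, the spread between probes, the signal bins and the split by number in the probe name were added after the data had been looked at. Named members were the 2 with the largest change in each direction, per measure and comparison, among called members whose groups did not overlap and which were detected in both channels on each of the 6 arrays compared, and the 2 with the highest and 2 with the lowest baseline ratio. No member has a gene name in the files or the rat gene table of assembly GRCr8, so probe names are used as given. The 17 m6A pathway genes listed were looked for among the 50 probes with an accession, of which 30 matched a symbol, and 0 were found. Of the cell type lists, 2 of 6 neuronal markers (Map2 and Dlg4) were found, each detected throughout in IP and Sup, and 0 of the astrocyte, microglia, oligodendrocyte and endothelium markers.

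Same-numbered arrays were checked for pairing by the correlation of their deviations from the group means across probes. For control and model it was 0.43, 0.14 and 0.32, and for control and BHD 0.38, 0.32 and 0.16, each above 0.1, so these numbers may pair the rats, and what a number shares is not given in the sources used here. For number 2 of control and model, the same-numbered correlation was not the highest. For model and BHD it was 0.60, 0.036 and 0.25, so that these numbers were left unpaired. Arrays with 1 scan time were taken as 1 slide. Alternatives covered the background correction, normalization within and between arrays, the filter, the arrays fitted, blocks for number and slide, each replicate left out and the deposited table. Keeping the outlier spots was added after the data were seen.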

Additional observations from a re-analysis of the deposited data

How the results depend on the processing

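The array number limits precision, and single arrays and the signal correction moved the counts of called members more than the filter did. The direction of the 33 changes of named members was the same in the 12 settings run for each, while the 4 members named for their baseline ratio were not rerun. Of those results 339 kept their call, 57 lost it in 23 probe results, and 0 reversed. Counts below are members called, higher and lower in parentheses, for ratio, IP and Sup. In model against control they were 7, 15 and 11 as reported, in BHD against model 64, 155 and 104, and in BHD against control 21, 104 and 166.

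With the scanner's processed signals the counts were 127 (65, 62), 81 (35, 46) and 126 (55, 71) for model against control, 331 (124, 207), 436 (72, 364) and 305 (73, 232) for BHD against model, and 161 (73, 88), 368 (62, 306) and 506 (108, 398) for BHD against control. With the deposited log2 table they were 266 (14, 252), 80 (38, 42) and 214 (200, 14), then 279 (127, 152), 441 (32, 409) and 364 (44, 320), then 284 (15, 269), 420 (44, 376) and 297 (162, 135). That table moves the median ratio of all probes by -0.29 in model against control, beside a shift of -0.25 in the members. Median centring gave ratio counts of 1 (1, 0), 42 (5, 37) and 7 (5, 2). No normalization within arrays gave ratio counts of 28 (1, 27), 103 (102, 1) and 6 (5, 1), IP counts of 79 (5, 74) for model and 175 (11, 164) for BHD against control, and Sup counts of 29 (23, 6) for model against control and 237 (2, 235) for BHD against model. It also reversed the member median shift, to -0.551 for ratio and 0.281 for Sup in model against control and to 0.495 for ratio and 0.188 for IP in BHD against model, where the medians of all probes moved by -0.54, 0.28, 0.48 and 0.23. Without the step between arrays the counts were 38 for IP and 26 for Sup in model against control, 245 for IP in BHD against model and 200 for IP in BHD against control.

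With slide as a block the counts were 2, 7 and 4 for model against control, 115 for ratio and 36 for Sup in BHD against model, and 78, 199 and 58 in BHD against control. With the replicate block the ratio count in model against control was 24 (10, 14), and no other count moved by over 1.5 times. All 9 arrays in the fit gave 9 for IP in model against control, and keeping outlier spots 64 for IP in BHD against control. The positive and significant flag gave detection of 77.5%, 81.2% and 82.1% in IP and 68.1%, 71.5% and 80.3% in Sup for control, model and BHD. Within signal bins the difference of medians to ASRN6AP1B was -0.033 in control. Over the 9 arrays it was -0.0097 (exact sign-flip p = 0.488).

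With each replicate left out in turn, the ratio counts ranged from 0 to 69, 36 to 104 and 5 to 73 in the order above, the IP counts from 6 to 35, 63 to 227 and 31 to 188, and the Sup counts from 10 to 32, 54 to 200 and 70 to 292. The difference of medians to ASRN6AP1B ranged from -0.024 to -0.012. The member median shifts ranged, for ratio, from 0.0035 to 0.019, -0.023 to -0.011 and -0.013 to 0.0014, for IP from -0.021 to 0.0038, -0.070 to -0.025 and -0.065 to -0.024, and for Sup from -0.023 to 0.0039, -0.077 to -0.027 and -0.082 to -0.035.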
